A study of Rattus norvegicus with 24 samples.

Results

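The genes described here encode the proteasome, its regulators and its assembly factors, as read in whole kidney RNA. Members were all genes whose rat symbol matched Psma, Psmb, Psmc, Psmd, Psme, Psmf or Psmg followed by a number, with at least 10 counts in at least 6 animals. A match was found for 49 of the 17334 genes in the files, and all 49 passed the minimum, each with at least 10 counts in 24 of 24 animals, so no match lay outside it. They counted among the 12778 genes that were tested. The pattern also takes in Psmc3ip and Psme3ip1, which are partners of a proteasome gene by name and not subunits. RNA was taken from left kidneys, 1 per animal, of 24 PKD/Mhm (Cy/+) males aged 8 months, 6 in each of 4 groups. All of them, controls included, are labelled as heterozygous for the Cy allele of Anks6, which is known to give cystic kidneys. The methods give touch of the abdomen as the way in which they were told from non-cystic animals, and name no genotyping. Controls (Ctrl) were untreated. The other groups were given, every month for 6 months, conditioned medium (CoCM), intraperitoneal ABCB5+ cells (i.p. ABCB5+) or intravenous ABCB5+ cells (i.v. ABCB5+). The cells were human and skin-derived. The medium was the supernatant of such cells grown together with macrophages of the human monocytic line THP-1, stimulated with interferon gamma and lipopolysaccharide. The sources differ on whether the medium was given i.p. or i.v. Controls are numbered 1 to 24 and treated animals 26 to 43, so whatever the numbers stand for cannot be told apart from treatment.

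The proteasome degrades proteins tagged with ubiquitin. Its barrel, the 20S core, is a stack of rings of alpha and beta subunits, and the 19S cap unfolds the substrate and threads it in. In most cells 3 beta subunits cut peptide bonds: Psmb5 (chymotrypsin-like), Psmb6 (caspase-like) and Psmb7 (trypsin-like). Under interferon, and at rest in leukocytes, they are replaced in new particles by Psmb8, Psmb9 and Psmb10, giving the immunoproteasome, whose peptides feed antigen presentation. Psme1 and Psme2 form PA28, a ring that opens the core and is also induced by interferon.

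The promoters of 6 members are shown: the inducible Psmb8, Psmb9 and Psmb10, the constitutive Psmb5 and Psmb6, and Psme2 of PA28. Those of the constitutive Psmb7 and of Psme1 are not shown. RefSeq promoters of 300 bases, from 250 before to 50 after the annotated start, were found for 44 of the 49 members (assembly GRCr8, coding strand, 5′ to 3′). Capitals mark, in Psmb8, Psmb9, Psmb10 and Psme2, the interferon-stimulated response element TTTCNNTTTC on either strand, and in Psmb5 and Psmb6 the antioxidant response element TGACNNNGC on either strand.
Psmb8, chr20:4656982-4657281, minus strand: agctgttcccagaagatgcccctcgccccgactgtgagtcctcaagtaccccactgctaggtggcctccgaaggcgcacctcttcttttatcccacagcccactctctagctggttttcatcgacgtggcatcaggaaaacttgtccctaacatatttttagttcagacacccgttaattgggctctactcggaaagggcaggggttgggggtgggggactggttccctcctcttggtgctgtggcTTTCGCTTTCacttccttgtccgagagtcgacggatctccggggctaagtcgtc
Psmb9, chr20:4668750-4669049, plus strand: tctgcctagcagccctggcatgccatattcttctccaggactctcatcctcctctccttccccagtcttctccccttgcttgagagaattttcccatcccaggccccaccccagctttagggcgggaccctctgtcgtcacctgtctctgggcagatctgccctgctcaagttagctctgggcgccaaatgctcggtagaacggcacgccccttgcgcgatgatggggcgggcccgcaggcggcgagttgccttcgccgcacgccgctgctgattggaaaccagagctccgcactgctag
Psmb10, chr19:50743243-50743542, minus strand: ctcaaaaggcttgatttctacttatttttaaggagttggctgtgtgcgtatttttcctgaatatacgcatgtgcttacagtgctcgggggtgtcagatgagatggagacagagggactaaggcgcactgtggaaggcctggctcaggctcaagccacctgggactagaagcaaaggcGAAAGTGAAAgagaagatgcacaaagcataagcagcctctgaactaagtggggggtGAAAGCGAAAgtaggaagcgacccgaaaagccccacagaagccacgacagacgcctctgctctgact
Psme2, chr15:33052702-33053001, minus strand: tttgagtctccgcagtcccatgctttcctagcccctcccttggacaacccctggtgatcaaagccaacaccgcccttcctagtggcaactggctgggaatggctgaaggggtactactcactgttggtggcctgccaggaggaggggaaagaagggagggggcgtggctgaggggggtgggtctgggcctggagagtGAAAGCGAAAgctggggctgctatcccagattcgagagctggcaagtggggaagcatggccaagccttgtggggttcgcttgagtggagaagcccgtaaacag
Psmb5, chr15:32047330-32047629, minus strand: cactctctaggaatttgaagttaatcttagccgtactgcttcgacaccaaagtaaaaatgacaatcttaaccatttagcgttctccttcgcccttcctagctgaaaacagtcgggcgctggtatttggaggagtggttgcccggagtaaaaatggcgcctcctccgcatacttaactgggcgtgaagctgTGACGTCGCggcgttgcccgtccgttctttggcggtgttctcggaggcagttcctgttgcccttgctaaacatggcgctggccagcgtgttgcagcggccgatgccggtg
Psmb6, chr10:55737638-55737937, plus strand: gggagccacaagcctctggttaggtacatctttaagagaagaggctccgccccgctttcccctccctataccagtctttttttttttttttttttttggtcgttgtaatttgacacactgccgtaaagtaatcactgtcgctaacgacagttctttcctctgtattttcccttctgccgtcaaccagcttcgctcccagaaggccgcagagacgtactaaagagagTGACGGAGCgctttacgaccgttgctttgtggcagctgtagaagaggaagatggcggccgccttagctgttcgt
The same 10 letters, GAAAGCGAAA, stood in the promoters of Psmb10 and Psme2 and, on the opposite strand, in that of Psmb8. This exact run was looked for after the sequences had been read, and 12 of 10816 promoters of tested genes held it on either strand (0.111%). Psmb10 held a second match, GAAAGTGAAA, 73 bases before the start. The looser element TTTCNNTTTC was found in 7 of 44 member promoters (15.9%) and in 2.95% of the 10816. Those 7 also included Psma4, Psmb3, Psmd7 and Psmg4. Psmb9 and Psme1 had no match in this window. The antioxidant element stood in 8 of 44 member promoters (18.2%) and in 14.5% of all, and the gamma-activated site TTCNNNGAA in 4 of 44 (9.09%) and 6.78%. Psmb8 held a gamma-activated site 245 bases before the start, which is not in capitals above. Psmb7 had no match to any of these elements, so the antioxidant element was not shared by all constitutive catalytic subunits. These letters are descriptions of a window and not evidence of binding.

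Total estimated counts lay between 9304630 and 14125457 per animal. On the first principal component of log2 CPM, which held 56.3% of the variance over all genes, 4 animals stood apart: CoCM animal 39, i.p. ABCB5+ animal 38 and i.v. ABCB5+ animals 36 and 37 scored 80.8 to 97.4, against −53.0 to 11.5 in the other 20. Kidney transcripts were present in all 24. Umod, the tubular uromodulin, was at 3713 to 4638 TPM in the 4 and 671 to 3784 TPM in the 20, and the proximal tubular phosphate carrier Slc34a1 at 1946 to 2951 against 357 to 1855 TPM. Injury genes went the other way, Spp1 at 326 to 566 against 6141 to 13259 TPM and Lcn2 at 13.6 to 18.2 against 164 to 520 TPM. The labels give no cyst measure per animal, so whether these 4 kidneys were cystic was not tested. For each comparison of groups, the count of members at an unadjusted p under 0.05 is given with and without them. Values of single genes are given without them only in part.

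Transcript levels, given per length as TPM (transcripts scaled to a fixed sum per library), spread over a wide range between members but a narrow one between animals. Psme1 was the most abundant member, with a mean of 473 TPM over 24 animals, followed by Psmb1 at 426 TPM and Psma7 at 287 TPM. In 46 of 49 members the mean was 20 TPM or more. The coefficient of variation over animals had a median of 7.60% among members and 22.7% among all genes tested, and it was under 10% for 36 members. Over all 24, the lowest values belonged to the ATPases Psmc2 (3.93%) and Psmc1 (4.36%) and to the lid subunit Psmd12 (4.68%). Psmc2 stayed between 128 and 154 TPM in all 24 kidneys. The highest belonged to Psma8 (40.2%), Psmb8 (39.96%) and Psmb9 (38.1%). Without the 4 animals Psmb8 was at 16.6% and Psmb9 at 17.2%, and Psma8 (40.6%), Psmb11 (33.7%) and Psmd14 (29.5%) were highest.

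**Figure D1:**
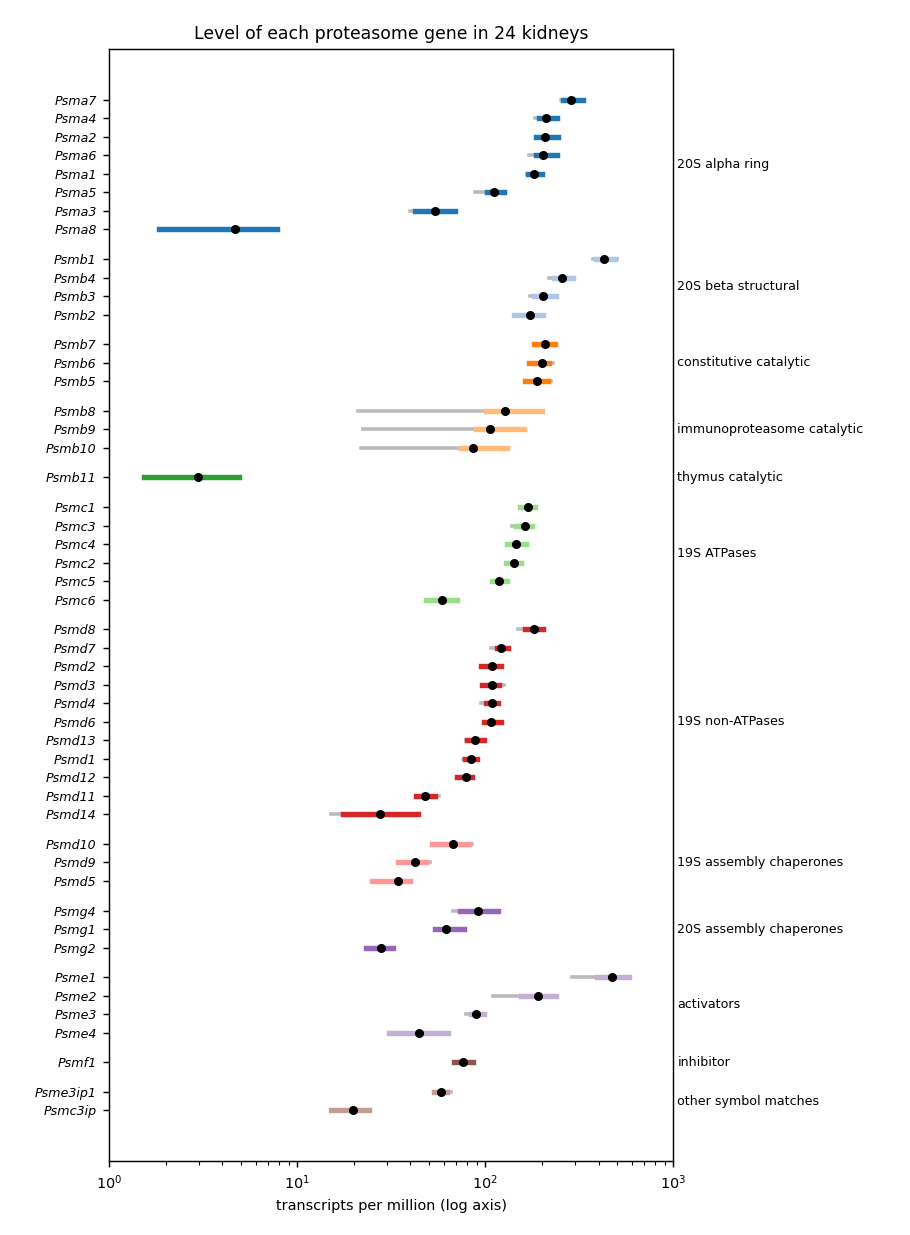
Mean level (black points) of the 49 members in TPM on a log axis, grouped by role, with coloured bars from the lowest to the highest of the 20 animals other than 36, 37, 38 and 39 and grey bars over all 24. Grey extends far to the left for Psmb8, Psmb9 and Psmb10, whose lowest values were 21.1, 22.3 and 21.8 TPM.

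Within the core, the 14 widely used subunits (7 alpha and 7 beta, the inducible ones apart) had means from 54.1 TPM in Psma3 to 426 TPM in Psmb1, a 7.87-fold span. Among alpha subunits, which form the gated outer rings, Psma7 was highest. Psma8, the alpha subunit known from testis, was at 4.69 TPM. Of the beta subunits without a catalytic site, Psmb2 was lowest at 173 TPM. Psmb11, known from the cortical epithelium of the thymus, had the lowest mean of all members, 2.96 TPM. Both rest on few counts, 32.6 to 130 in Psma8 and 37.8 to 116 in Psmb11.

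Of the cap, the ATPases ran from 58.9 TPM in Psmc6 to 168 TPM in Psmc1, and the other subunits from 27.5 TPM in Psmd14 to 181 TPM in Psmd8. Psmd14, the subunit that removes ubiquitin from the substrate, was the variable one of the cap: it ranged from 15.2 to 43.7 TPM with a coefficient of variation of 32.5%, and without the 4 animals it was 29.5%. It varied within every group, from 20.8 to 41.1 TPM in Ctrl, 15.7 to 41.8 with medium, 15.2 to 43.7 with i.p. cells and 17.6 to 31.5 with i.v. cells. Chaperones of cap assembly lay between 34.3 TPM (Psmd5) and 67.0 TPM (Psmd10), and those of core assembly between 28.03 TPM (Psmg2) and 91.5 TPM (Psmg4). Psme4, the activator PA200, had 44.4 TPM, and Psmf1, an inhibitor of the core, 75.9 TPM. Of the other symbol matches, Psmc3ip had 19.9 TPM and Psme3ip1 58.0 TPM.

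Counts that were not whole, meaning reads shared out between transcripts of more than 1 gene by the quantifier, were found in 7 members: Psma3, Psma8, Psmb11, Psmc6, Psmd9, Psme2 and Psme3. Their levels are uncertain for that reason. In the other 42 members every estimate was a whole number exactly as deposited.

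Constitutive catalytic subunits were expressed at similar levels in every kidney. Psmb5 ranged from 162 to 223 TPM, Psmb6 from 171 to 230 TPM and Psmb7 from 182 to 236 TPM over the 24 animals. Their ranges overlapped, although Psmb7 exceeded Psmb6 in 20 of 24 animals and Psmb6 exceeded Psmb5 in 20 of 24. In Ctrl the medians were 178, 184 and 201 TPM. Animals 36 to 39 were not low here, with 195 to 223 TPM of Psmb5, 195 to 230 TPM of Psmb6 and 211 to 235 TPM of Psmb7.

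Inducible subunits were abundant in 20 kidneys and low in 4. Psmb8 was at 101 to 201 TPM in the 20, and at 21.1 TPM in CoCM animal 39, 27.1 TPM in i.p. ABCB5+ animal 38, and 29.97 and 30.1 TPM in i.v. ABCB5+ animals 36 and 37. The order Psmb8, Psmb9, Psmb10 held in 20 of these 20 animals for both steps. Psmb9 was at 89.0 to 161 TPM in the 20, and at 22.3, 26.7, 30.04 and 33.9 TPM in animals 39, 38, 36 and 37. For Psmb10 the 20 lay between 73.96 and 131 TPM and the same 4 at 24.1, 21.8, 21.8 and 25.45 TPM. No value of the 4 overlapped those of the 20. In Ctrl the median of Psmb8 was 149.6 TPM, of Psmb9 125 TPM and of Psmb10 98.6 TPM. The medians of Psmb8 were 144 TPM in CoCM, 128 TPM with i.p. cells and 138 TPM with i.v. cells, each within the Ctrl range of 101 to 174 TPM. Psmb8 reached the level of Psmb5 in only 2 of 24 kidneys, Ctrl animal 12 and i.p. ABCB5+ animal 30.

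**Figure D2:**
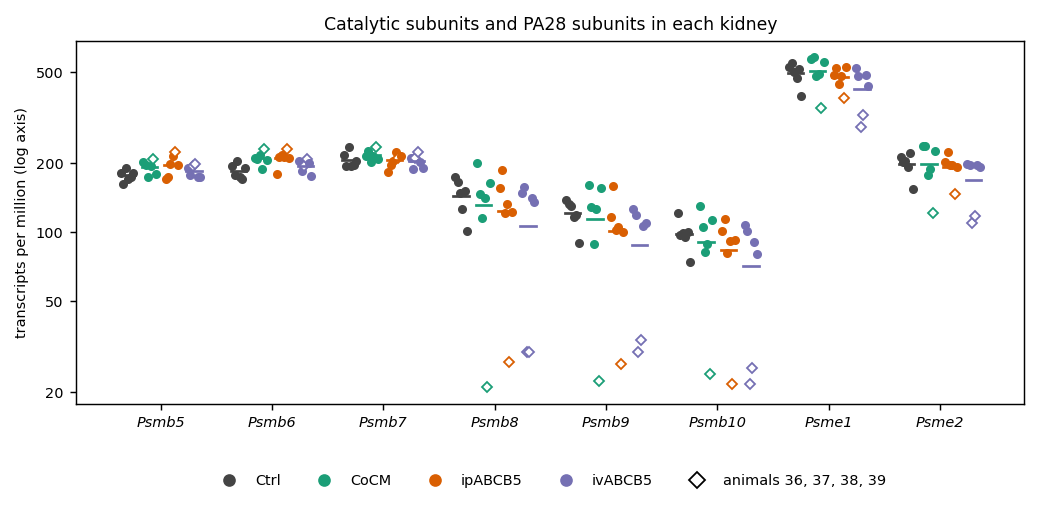
Level of the catalytic subunits and of Psme1 and Psme2 in each kidney (TPM, log axis), by group, with a bar at the group mean and open diamonds for animals 36, 37, 38 and 39. The diamonds lie at 21.1 to 33.9 TPM for the inducible subunits and within the other points for Psmb7.

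The ratio of inducible to constitutive subunits put the difference within a sample, where library scaling cancels. It was computed as the geometric mean TPM of Psmb8, Psmb9 and Psmb10 over that of Psmb5, Psmb6 and Psmb7. In Ctrl it was 0.633 ± 0.101 (SD, n = 6), from 0.456 to 0.725. The 20 animals ranged from 0.456 to 0.774, and animals 39, 38, 36 and 37 had 0.1005, 0.113, 0.135 and 0.141. By position, Psmb8 over Psmb5 was 0.819 ± 0.167 in Ctrl, Psmb9 over Psmb6 was 0.655 ± 0.0968 and Psmb10 over Psmb7 was 0.474 ± 0.0706 (SD, n = 6 each). Against Ctrl, the log2 ratio differed by −0.44 after medium, −0.50 after i.p. cells and −0.74 after i.v. cells, where SDs within treated groups were 1.10, 1.0 and 1.12. Without the 4 animals these differences were −0.005, −0.11 and −0.02, with SDs of 0.27, 0.31 and 0.10 (n = 5, 5 and 4) and 0.25 in Ctrl. Each difference was smaller than the SD within its treated group.

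Leukocyte transcripts moved with this ratio. Of 15 leukocyte genes, 14 were lowest in animals 36 to 39, Nkg7 being the exception. Summed over the 15, the level was 147 TPM in animal 39, 311 in 38, 382 in 36 and 460 in 37, and 1434 to 3473 TPM in the other 20. By group it was 1705 to 3473 TPM in Ctrl, 147 to 3377 with medium, 311 to 3053 with i.p. cells and 382 to 2986 with i.v. cells. Ptprc, the pan-leukocyte antigen CD45, was at 1.24 to 4.05 TPM against 14.8 to 51.6 TPM. The B cell gene Ms4a1 was listed at 0 in 2 of the 4 and did not pass 0.317 TPM in the others. Genes of peptide loading and interferon response were low in the same animals, 11 of the 12 in the files, with Tap1 at 12.7 to 16.8 TPM against 32.6 to 69.0 TPM and Irf1 at 11.2 to 14.2 against 47.0 to 103 TPM. The injury genes Spp1, Havcr1 and Lcn2 were lowest there too, 3 of 3. Of the 8 nephron genes 0 were, and Slc34a1 was higher in each of the 4 than in any other kidney. In bulk tissue, fewer cells of a type and less RNA per cell cannot be told apart, and the part of these genes in the ratio was not tested.

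**Figure D3:**
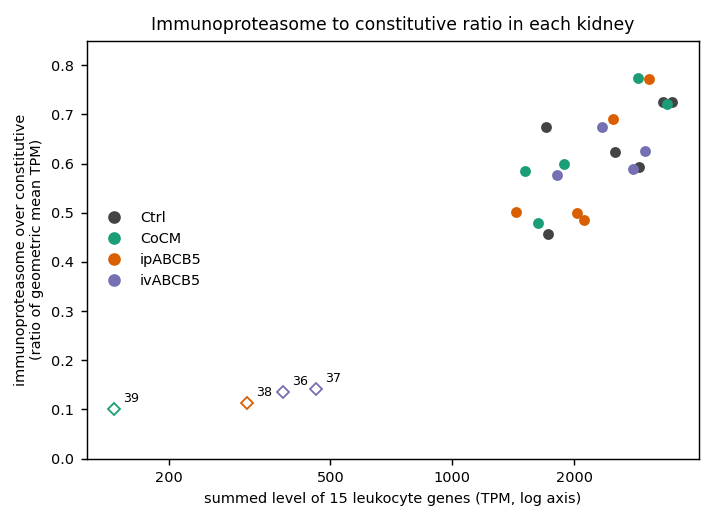
Ratio of inducible to constitutive catalytic subunits (geometric mean TPM, vertical axis from 0) against the summed level of 15 leukocyte genes (TPM, log axis) in each kidney, coloured by group. Open diamonds are animals 36 to 39, at ratios of 0.1005 to 0.141, while the other 20 lie at 0.456 or more.

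PA28 followed the same animals to a lesser degree. Psme1 was at 349, 384, 289 and 325 TPM in animals 39, 38, 36 and 37, and at 395 to 580 TPM in the other 20. Psme2, whose estimates share reads, was at 121, 146, 110 and 117 TPM, and at 155 to 238 TPM in the 20. The gap between the sets was thus small, 384 against 395 TPM for Psme1. The nuclear activator Psme3 did not separate them, with 79.2 to 92.0 TPM in the 4 and 83.9 to 98.1 TPM in the 20. By TPM, animals 36 to 39 were the 4 lowest of 24 in 7 members (the 3 inducible subunits, Psme1, Psme2, Psma5 and Psmd7), and so they were in 22.8% of all genes tested. By CPM scaled with TMM, they were the 4 lowest in 3 members, Psmb8, Psmb9 and Psmb10, and in 14.2% of genes. They were the 4 highest by CPM in Psmd3 and Psmd11, and in 10% of genes.

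Whether inducible subunits still varied with leukocyte and interferon genes once those animals were left out was examined in the other 20, with log2 CPM. The 12 relations of the 6 catalytic subunits with Ptprc and Tap1 are given, with p adjusted over the 18 relations computed. Tap1 encodes a subunit of the peptide transporter and lies next to Psmb8 and Psmb9 in the annotation. With it, Psmb8 had r = 0.82 (permutation p = 1e-05, the smallest that 100000 permutations can give, adjusted 0.00018) and rho = 0.73 (permutation p = 0.00049, adjusted 0.00882). Psmb9 had r = 0.76 (permutation p = 0.00013, adjusted 0.00117) and rho = 0.68 (permutation p = 0.0013, adjusted 0.0117). Psmb10, on another chromosome, had r = 0.63 (permutation p = 0.00355, adjusted 0.0213) and rho = 0.51 (permutation p = 0.0231, adjusted 0.123). Without the 2 animals farthest from the median of Tap1, r was 0.75, 0.69 and 0.56, with adjusted permutation p of 0.00846, 0.00945 and 0.105, so the last did not pass without them. The rank correlations were then 0.64, 0.58 and 0.39, with adjusted permutation p of 0.0886, 0.125 and 0.327, so by rank none of the relations passed without those animals. After group means were subtracted it was 0.84, 0.81 and 0.65.

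The remaining 9 relations had adjusted permutation p above 0.05. Psmb8 and Psmb9 had r = 0.45 and 0.44 with Ptprc (permutation p = 0.0439 and 0.0529, both 0.190 adjusted, rho 0.50 and 0.43). After group means were subtracted, these were 0.56 and 0.59 with adjusted permutation p of 0.0334 and 0.0292. Psmb10 had r = 0.21 with Ptprc (permutation p = 0.384, adjusted 0.576, rho 0.20). For Psmb5, Psmb6 and Psmb7 all 6 values of r were negative, from −0.41 to −0.10. On log2(TPM + 1), 7 of 12 relations passed, among them negative ones of Psmb5 with Ptprc (r = −0.58) and Psmb7 with Ptprc (r = −0.51), so the constitutive values depend on the scale.

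Members varied together, by class. Over the 20 animals the median r of log2 CPM over all pairs of members was 0.61, against −0.008 over all pairs of genes tested. It was 0.81 among alpha subunits, 0.89 among structural beta subunits, 0.88 among constitutive catalytic subunits, 0.82 among ATPases and 0.56 among the other cap subunits. The 3 inducible subunits had r of 0.90 to 0.93 with each other, 0.73 to 0.89 with Psme1 and Psme2, and 0.28 to 0.55 with Psmb5, Psmb6 and Psmb7. Chaperones of cap assembly were loosely tied (median 0.21). With all 24 animals, which fall into separate clusters, the inducible subunits had r of −0.59 to −0.45 with Psmb5, Psmb6 and Psmb7, the opposite sign, and the median was 0.52 among the chaperones of cap assembly and 0.57 over all members. These are descriptions over animals that share a scaling step, and pairs of genes are not independent.

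**Figure D4:**
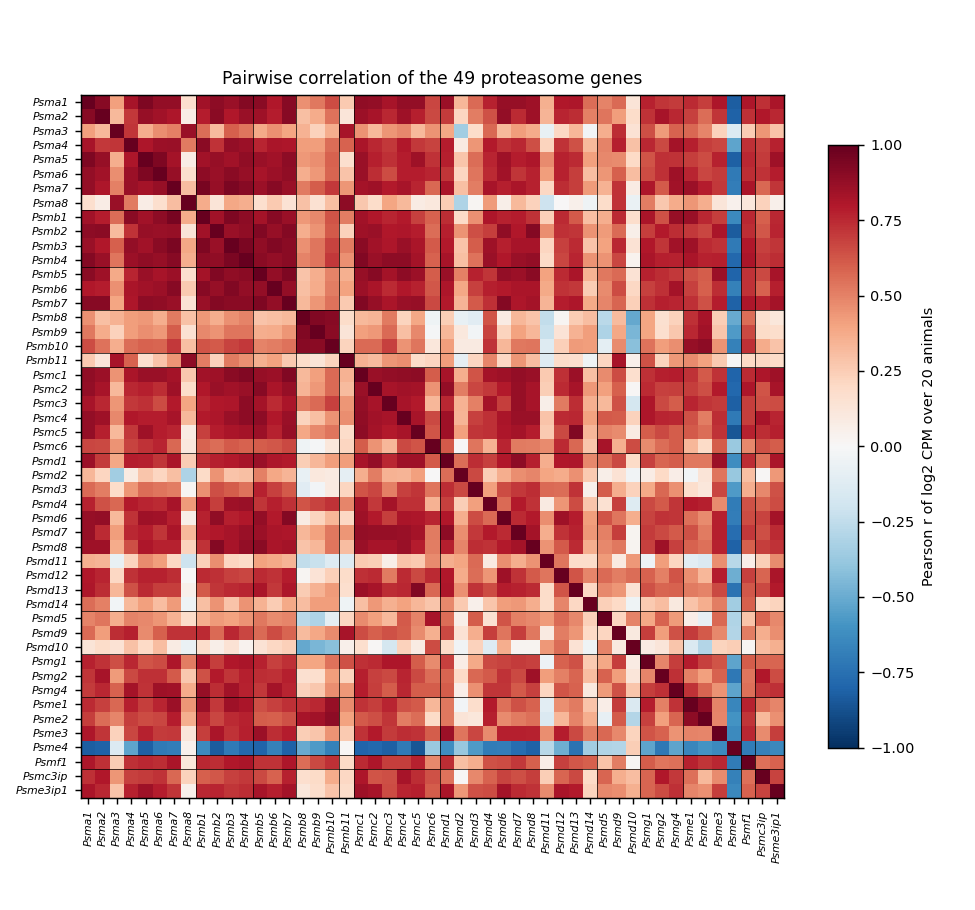
Pearson r of log2 CPM between all pairs of the 49 members over the 20 animals other than 36, 37, 38 and 39, ordered by role with lines between roles, from blue (−1) to red (1). Psme4 is a blue stripe, and Psmb8, Psmb9 and Psmb10 form a red block with Psme1 and Psme2.

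Psme4 was the exception to this pattern. Its median r with the other members was −0.67, the only negative one, and its lowest was −0.85 with the ATPase Psmc5. In Ctrl it ranged from 30.9 to 63.1 TPM. Psma3, Psma8, Psmb11 and Psmd9, picked after their values were seen, formed a second set with r of 0.72 to 0.89 with each other. All 4 are among the 7 members with shared reads. Psma8, by contrast, had a median r of 0.21 with all members.

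**Figure D5:**
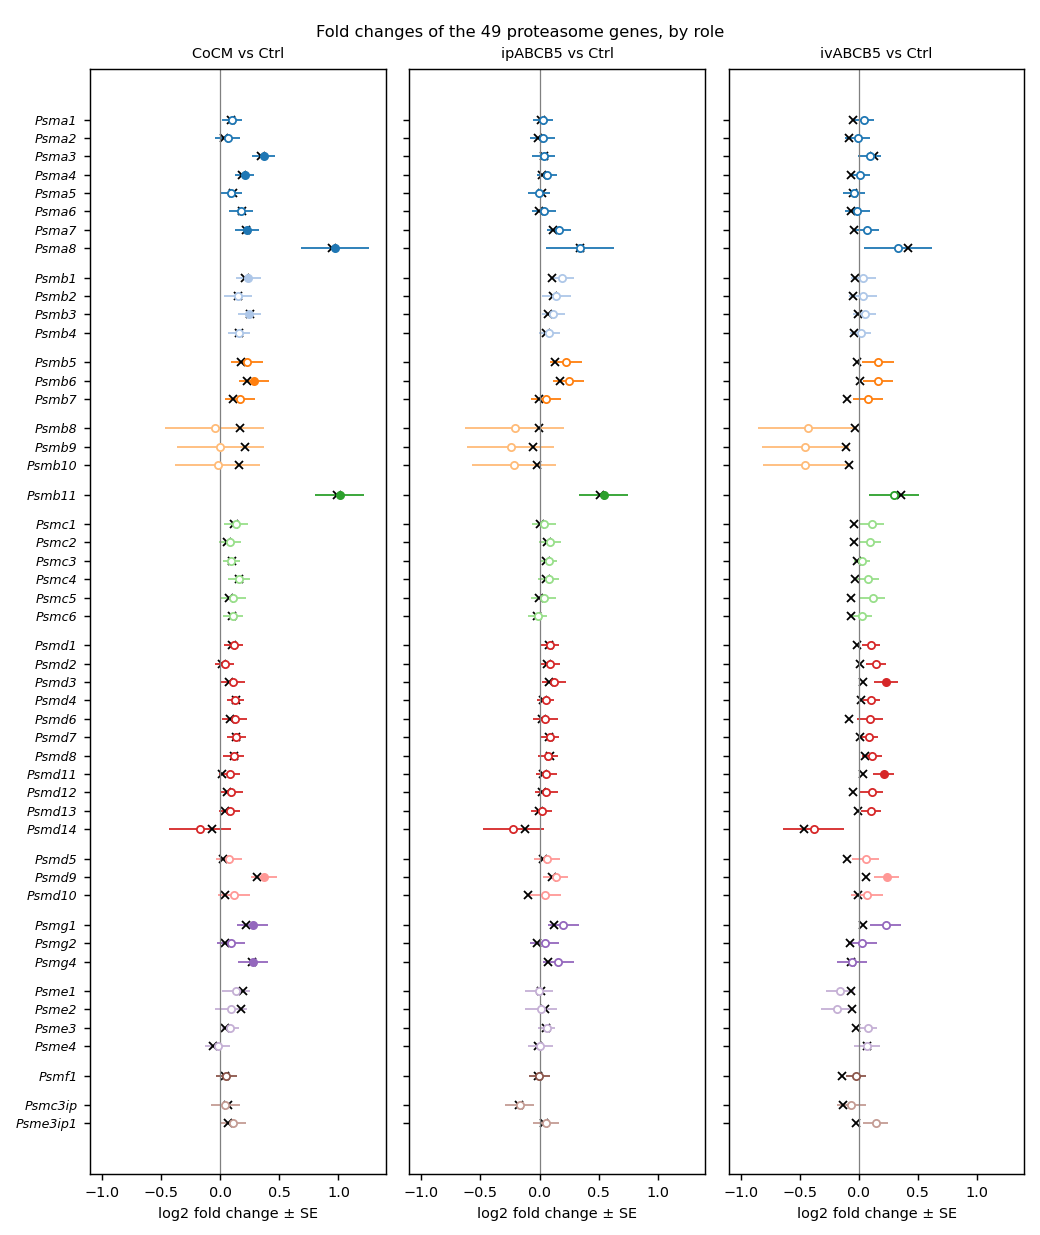
Log2 fold change of each member against Ctrl (points, bars are SE, n = 6 per group) by role, for medium, i.p. cells and i.v. cells. Filled points had an unadjusted p under 0.05 in edgeR, and crosses give the value without animals 36, 37, 38 and 39. Most points lie right of 0 in CoCM, with Psmb11 and Psma8 farthest at 1.01 and 0.97.

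To assess the effect of conditioned medium, CoCM was compared with Ctrl. After adjustment over all genes 0 of 49 members were below 0.05 in edgeR's quasi-likelihood test, where 0.00783% of genes were. At an unadjusted p under 0.05, 11 members were higher and 0 lower, against 5.96% of all genes in each direction. The 11 were Psma3, Psma4, Psma7 and Psma8 of the alpha ring, Psmb1 and Psmb3 of the beta ring, the catalytic Psmb6 and Psmb11, and the assembly factors Psmd9, Psmg1 and Psmg4. None belonged to the cap itself. The median log2 fold change was 0.11 among members and 0.01 among all genes. Without animals 36 to 39, 12 members were higher and 0 lower at that p, against 7.29% and 9.69% of all genes, with 0 after adjustment (0% of all genes).

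The scale bears on the sign. With TMM scaling 45 of 49 members and 51.4% of genes were higher in CoCM, and on log2(TPM + 1) 27 members and 32.6% of genes were. On that scale the median of all genes was −0.10 (−0.11 with a pseudocount of 0.1) and that of members 0.01, so relative to all genes the members lay 0.10 higher on either scale. At an unadjusted p under 0.05, limma on log2(TPM + 1) gave 8 members higher and 0 lower, where 2.32% and 7.98% of genes were, and 0 after adjustment.

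Psmb11 had the smallest p of the members in CoCM (edgeR). It was at 1.53 to 4.01 TPM in Ctrl (median 1.92) and at 3.26 to 4.89 TPM in CoCM (median 4.07). By CPM, 5 of the 6 kidneys exceeded every control, and Ctrl animal 23, at 4.01 TPM, was the control that reached into CoCM. On the log2 scale CoCM was 1.01 ± 0.21 (SE) higher, and edgeR gave an adjusted p of 0.165. Without Ctrl animal 23 it was 1.19 with an adjusted p of 0.0139 (edgeR), and DESeq2 on all animals gave an adjusted p of 0.00217. Over the alternatives that kept all controls, adjusted p ran from 0.00217 to 0.478. In DESeq2 it also passed in the test over the 4 groups (adjusted p = 0.0138), as 0.0783% of genes did.

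Psma3 was at 42.2 to 66.0 TPM in Ctrl and 50.3 to 69.3 TPM in CoCM, a difference of 0.37 ± 0.10 (SE) on the log2 scale. The adjusted p was 0.216 in edgeR and 0.0462 in DESeq2, which called these 2 members in CoCM and 0.673% of the genes to which it gave an adjusted p. Psmd9, a chaperone of the cap base, was the only member whose groups did not overlap by CPM. By TPM they touched, at 36.5 to 44.3 TPM in Ctrl and 43.5 to 50.7 TPM in CoCM. Such separation upward was found in 0.853% of all genes and downward in 0.524%, where 0 members were. On the log2 scale it was 0.37 ± 0.11 (SE) higher, and the adjusted p in edgeR was 0.245. Psma8 had a median of 3.31 TPM in Ctrl and 6.56 TPM in CoCM and did not pass (log2 fold change 0.97 ± 0.29, adjusted p = 0.255, edgeR). These 4 members share reads with other genes, as stated above.

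Constitutive catalytic subunits lay slightly above Ctrl in CoCM. Psmb6 was at 171 to 204 TPM in Ctrl and 189 to 230 TPM in CoCM, a log2 difference of 0.29 ± 0.13 (SE), adjusted p = 0.396 in edgeR. Values were 0.23 ± 0.13 for Psmb5 and 0.17 ± 0.13 for Psmb7. For Psmb8, Psmb9 and Psmb10 they were −0.05 ± 0.42, 0.001 ± 0.37 and −0.02 ± 0.36, and the sign of each changed in some alternative. Without animals 36 to 39 they were 0.17 ± 0.15, 0.21 ± 0.16 and 0.16 ± 0.15, on the same side as the constitutive ones at 0.17, 0.22 and 0.11 for Psmb5, Psmb6 and Psmb7. Psme1 and Psme2 were at 0.13 ± 0.12 and 0.09 ± 0.13 with all animals kept, and the sign of Psme2 changed in some alternative. CoCM animal 39 was the lowest of its group in both. The other CoCM animals lay at 481 to 580 TPM for Psme1 and 177 to 238 TPM for Psme2. Ctrl ranged from 395 to 546 TPM and from 155 to 221 TPM. None of these constitutive, inducible or PA28 genes had an adjusted p under 0.05 in any alternative tried.

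Intraperitoneal cells were compared with the same controls. In edgeR 0 of 49 members passed after adjustment (0% of all genes), and DESeq2 and limma gave 0 as well. At an unadjusted p under 0.05, 1 member was higher and 0 lower, where 1.26% and 0.509% of genes were. That member was Psmb11, at 2.09 to 4.32 TPM, which was 0.54 ± 0.21 (SE) above Ctrl on the log2 scale, adjusted p = 0.978 in edgeR. Of the inducible subunits, Psmb8 was at −0.21 ± 0.42, Psmb9 at −0.24 ± 0.37 and Psmb10 at −0.21 ± 0.36. Without animal 38 and the other 3 they were −0.004, −0.06 and −0.03. Psmb5, Psmb6 and Psmb7 were at 0.22, 0.25 and 0.05 with all animals kept. Without the 4 animals these constitutive subunits were at 0.13, 0.17 and −0.0009. Psme1 and Psme2 were at −0.004 and 0.01 with all animals kept. The signs of Psmb7, Psme1 and Psme2 changed in some alternative. By median, members lay at 0.06 and all genes at 0.004. With TMM 40 of 49 members were higher, and on log2(TPM + 1) 21. Without the 4 animals 34 were, with a median of 0.03, and 1 member was higher and 0 lower at an unadjusted p under 0.05 (0.712% and 0.681% of genes).

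Intravenous cells gave 0 of 49 members after adjustment in edgeR, DESeq2 and limma (0% of all genes in edgeR). At an unadjusted p under 0.05, 3 members were higher and 0 lower, where 4.44% and 1.34% of genes were. These were the cap subunits Psmd11 (0.21 ± 0.091) and Psmd3 (0.23 ± 0.10), and Psmd9 (0.24 ± 0.11), each with an adjusted p of 0.673 (edgeR). Psmd3 had a median of 105 TPM in Ctrl, where the highest was 114, and ran from 105 to 126 TPM after i.v. cells, where animals 36 and 37 were the highest of all 24 at 126 and 122 TPM. Without the 4 animals the values fell to 0.04, 0.04 and 0.06 and 0 members were below that p in either direction, where 0.743% of genes were higher and 0.446% lower. Psmb8, Psmb9 and Psmb10 were at −0.43 ± 0.42, −0.45 ± 0.37 and −0.45 ± 0.36, and at −0.03, −0.10 and −0.08 without them. Constitutive Psmb5, Psmb6 and Psmb7 were at 0.16, 0.16 and 0.08, and at −0.02, 0.01 and −0.10 without them. With all animals kept, Psme1 and Psme2 were at −0.16 and −0.18. Animals 36 and 37 were the lowest of the i.v. group in both. The other i.v. animals lay at 435 to 522 TPM for Psme1 and 193 to 198 TPM for Psme2. Ctrl ranged from 395 to 546 TPM and from 155 to 221 TPM. With TMM 37 of 49 members were higher, and on log2(TPM + 1) 20. Without the 4 animals 13 were, with a median of −0.04. All comparisons with Ctrl share its 6 animals.

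The route of injection was assessed by setting i.p. against i.v. ABCB5+. In edgeR 0 members passed after adjustment (0% of genes), and at an unadjusted p under 0.05 there were 0 in either direction, against 0.689% higher and 1.46% lower among all genes. DESeq2 gave 0 members after adjustment and 0 before, and limma on log2(TPM + 1) gave 0 and 3 (0.822% of genes higher, 0.72% lower). The median of members was 0.001 and that of all genes −0.001, with 25 of 49 members higher in i.p. ABCB5+. Without animals 36 to 39, 43 of 49 were higher with a median of 0.07 (all genes −0.0004), and 0 members were below an unadjusted p of 0.05 (0.43% of genes higher, 0.689% lower). CoCM against the mean of both cell groups gave 0 members after adjustment (0% of genes) and 5 higher, 0 lower before it (3.21% and 3.79% of genes). The 5 were Psma3, Psma4, Psma8, Psmb11 and Psme1, and DESeq2 and limma passed 0 members after adjustment. Without animals 36 to 39 it was 10 higher and 0 lower (4.92% and 9.05% of genes), 0 after adjustment, and the median was 0.13 in place of 0.06. Over the 4 groups together, 0 members passed in edgeR (0% of genes), with 4 at an unadjusted p under 0.05 (4.71% of genes), and DESeq2 passed 1, Psmb11. Without animals 36 to 39, edgeR passed 0 and 4 were at an unadjusted p under 0.05 (6.21% of genes).

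Genes that act with the proteasome were described from lists chosen with earlier results in view. Of 15 proteasome factors in the files, 0 passed after adjustment in any comparison with Ctrl (edgeR). At an unadjusted p under 0.05, 2 were higher in i.v. ABCB5+ (Adrm1, a ubiquitin receptor of the cap, and Ddi2, a protease that processes a regulator of proteasome genes), where 4.44% of all genes were, and 0 elsewhere. In i.v. animals 36 and 37 Adrm1 was at 148 and 150.5 TPM, against 105 to 139 TPM in the 20, and Ddi2 at 39.9 and 32.9 TPM against 13.8 to 34.9 TPM. The log2 fold changes were 0.28 ± 0.12 and 0.50 ± 0.23 (SE), and 0.07 ± 0.090 and 0.12 ± 0.21 without the 4 animals, where neither was below that p. Without the 4 animals, 4 factors were instead lower in CoCM at an unadjusted p under 0.05 (Rad23b, Ubqln1, Ubqln2 and Zfand5, where 9.69% of genes were). With i.p. cells 1 was lower (Zfand5, where 0.681% of genes were), and 0 passed after adjustment in either. Pomp, the maturation factor of the core, was at 271 to 366 TPM over the 20 animals and 307 to 358 TPM in animals 36 to 39. Of 6 genes of ubiquitin and its activating enzymes, 0 had an unadjusted p under 0.05 against Ctrl. Without the 4 animals 1 had (Rps27a, higher in CoCM, where 7.29% of genes were). Ubb, a polyubiquitin gene, was at 2007 to 2687 TPM in the 20 and 2160 to 2361 TPM in the 4. Among peptide loading and interferon genes, 11 were tested and 0 had an unadjusted p under 0.05 against Ctrl, and the same was true of the 15 leukocyte genes. With the 4 animals left out, 1 of the 11 was below that p (Erap1, lower in CoCM, where 9.69% of genes were) and 0 of the 15.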

How the data were processed

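RNA-seq was analysed in the left kidneys of 24 rats, 6 per group as the labels give them. The authors deposited estimated counts and TPM per gene for each animal, for 17334 Entrez identifiers. The submitters' processing notes name Trim Galore 0.6.4, kallisto 0.4.6 (as written there) and the genome build rn6, and the study's methods name a human transcript package. Symbols came from a RefSeq table of GRCr8 (17179 matched). Of the estimated counts, 86.4% to 87.3% per animal were whole (exactly, with no tolerance), and all were rounded. TPM summed to 964191 to 976409. Reads that a quantifier divides between similar transcripts make levels of such genes less certain.

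Genes were kept by filterByExpr (12778), scaled by TMM (factors 0.810 to 1.11) and tested with edgeR 4.0.16 (quasi-likelihood, all 24 animals in 1 fit, Benjamini-Hochberg adjustment over all genes, threshold 0.05) in R 4.3.3. DESeq2 1.42.0, limma 3.58.1 on log2(TPM + 1) and log2(TPM + 0.1), median-ratio factors, other count filters, fits of the compared groups only and leaving out animals were alternatives. P-values are two-sided. On simulated counts for CoCM against Ctrl, edgeR recovered 69.5% of genes changed 2-fold (12740 genes) and 93.4% of those changed 4-fold (12727 genes). Correlations used log2 CPM with a prior count of 2, Python 3.11.15, scipy 1.17.1 and 100000 permutations, and the relations with 1 further gene are not reported here. A count of 3 was 0.322 CPM in the smallest library, a limit for counting error only. No pair of animals within a group agreed within sampling noise (smallest chi-square per degree of freedom 10.6).

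Always named were Psmb5 to Psmb10, Psme1 and Psme2, then up to 3 members per direction with the smallest p under 0.05 in each comparison, and members whose groups did not overlap. Members and lists were chosen with earlier results of these data known. Paaf1, Ube3c, Ecpas, Nfe2l1 and Nlrc5 were not analysed here. Promoter letters came from RefSeq (GRCr8), with 5 members not in that table.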

Additional observations from a re-analysis of the deposited data

Results flagged for a closer look

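Of 36 pairs of a measure and a group checked for 1 animal far from the others (Dixon's criterion), 4 were past it, where chance gives about 1.8. Psmb6 was at 179.2 TPM in i.p. ABCB5+ animal 29, the lowest of its group. Psmb10 was at 21.83 TPM in i.p. ABCB5+ animal 38. The log2 ratio of inducible to constitutive catalytic subunits was −3.315 in CoCM animal 39, where the other 5 lay between −1.06 and −0.37. It was −3.141 in i.p. ABCB5+ animal 38, where the other 5 lay between −1.04 and −0.37. In i.v. ABCB5+ 2 animals were low (36 and 37), and a criterion for 1 distant animal found none.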

How the results depend on the processing

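No paired analysis was possible because the groups share no replicate numbers. In CoCM against Ctrl, DESeq2 called 2 members (Psmb11 and Psma3) where edgeR called 0 (81 genes against 1 over all), and leaving out 1 animal at a time gave 0 to 1, the 1 being Psmb11 without Ctrl animal 23. Over the 4 groups DESeq2 called 1 (10 genes over all). In the simulation at 2-fold (12740 genes) DESeq2 made 27 false calls where edgeR made 3. With no gene changed, DESeq2 made 1 where edgeR made 0. The simulation drew independent counts with the spread that edgeR estimated, and without a set of animals that stand apart. It therefore cannot decide between the tools in these data. Of the 12 correlations given, 3 passed by r as reported, 5 after subtracting group means and 7 on log2(TPM + 1). Without the 2 animals farthest from the median, 2 passed by r and 0 by rho. By rho, Psmb10 with Tap1 did not pass as reported (adjusted permutation p = 0.123). After subtracting group means, Psmb10 with Tap1 and Psmb8 with Ptprc did not pass by rho (adjusted permutation p = 0.0634 and 0.05085). Relations with Nfe2l1 were not run. The remaining calls of members stayed at 0 under the alternatives tried.

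Log2 fold changes near 0 changed sign, none of them called. Without animals 36 to 39, the values in CoCM were 0.167 for Psmb8 and 0.163 for Psmb10, with i.p. cells −0.000897 for Psmb7 and 0.0136 for Psme1, and with i.v. cells −0.0174 for Psmb5 and −0.103 for Psmb7. With median-ratio factors Psmb9 in CoCM was −0.00308 and Psme2 with i.p. cells −0.00402. With DESeq2 these were −0.00444 and −0.00398, and with at least 10 counts in every sample Psme2 was −0.00535. On log2(TPM + 1) and log2(TPM + 0.1), Psmb9 in CoCM was −0.303 and −0.310, Psme2 in CoCM −0.0329 and −0.0332, Psmb7 with i.p. cells −0.0101 and −0.0102, Psme2 with i.p. cells −0.03998 and −0.0402, and Psmb7 with i.v. cells −0.0166 and −0.0167. Leaving out 1 animal at a time gave, in CoCM, −0.232 to 0.176 for Psmb8, −0.145 to 0.213 for Psmb9 and −0.177 to 0.171 for Psmb10. With i.p. cells it gave −0.00584 to 0.114 for Psmb7, −0.0708 to 0.0523 for Psme1 and −0.0611 to 0.0685 for Psme2, and with i.v. cells −0.0363 to 0.137 for Psmb7. The cause of these shifts was not tested.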
